A study of Mus musculus with 3 samples.

Results

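The 39 genes described here are the enzymes of heparan sulphate synthesis and editing, the syndecans, the glypicans and the secreted cores perlecan and agrin. They were measured by every probe set annotated to exactly 1 gene symbol among the 39. Of the 39 genes, 37 were measured, out of 18193 genes in all, by 82 probe sets out of 45037 that are not controls. Ndst1 and Xylt1 were not analysed here.

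Heparan sulphate is a sulphated sugar chain that is built in the Golgi on a small set of core proteins and then displayed at the cell surface or in the basement membrane. Its synthesis starts with a linker on a serine of the core protein, continues with polymerisation by the exostosin enzymes, and ends with sulphation and epimerisation steps that leave patterned binding sites along the chain. Hedgehog, Fgf, Wnt and Bmp ligands, which direct outgrowth of the genital tubercle, bind such chains, and loss of single members of the pathway is known to alter their range or strength of signalling.

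RNA came from the genital tubercle, from which the external genitalia grow in both sexes, of 3 mouse embryos at embryonic day 14 and Theiler stage 22, with 1 sample per array and no pooling. All 3 are labelled male, have the FVB/N strain label, and came from FVB/N females mated to males with the SMAA/EYFP transgene, a fluorescent reporter named for smooth muscle actin (Acta2). Dissection followed that fluorescence, so the sample is the reporter-marked region with all the cell types it holds, and there is no untreated or wild type group. The developmental landmark differs between the samples, with separate fingers visible in replicate 3 and only indented footplate borders in replicates 1 and 2, and it gives the 1 contrast that the labels allow. Labels call the samples separate. A p-value rests on the spread between the arrays other than the lone one of its contrast, and measures none for the lone sample. For the landmark contrast these arrays are replicates 1 and 2. That spread is drawn by limma toward a value shared by all probe sets tested, so it is not that of each probe set alone.

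Values are linear intensities as the authors deposited them, with no detection calls, and the small number of arrays limits their precision. Background in each array was set at the 95th percentile of 81 probe sets for olfactory, vomeronasal and taste receptors, which was 197 in replicate 3, against 136 and 253 in replicates 1 and 2. Intensities of different probe sets depend on the probes and were not ranked against each other. The probe set of highest mean intensity stands for each gene and is called its representative one, and log2 differences and their SDs are on values aligned on the median of those probe sets that exceeded background on every array. Xist, the RNA that coats the inactive X chromosome in female cells, read 61883 in replicate 3, against 8.05 and 118 in replicates 1 and 2, and the Y-linked gene Eif2s3y read 37.9 in replicate 3, against 4384 and 3738 in replicates 1 and 2. These values go against the male label of replicate 3, and every direction drawn from the library labelled replicate 3 carries that limit. Genital tubercle markers lay above background in every array for 7 of 8 genes, among them Shh, Hoxd13 and Isl1, and Hoxa13 was above it in replicate 1 alone. Of 6 smooth muscle markers 2 were above background in 3 of 3 samples, and the 6 summed to 2919 in replicate 3, against 6163 and 3442 in replicates 1 and 2. Liver markers, of which 4 of 6 were above background in 3 of 3 samples, differed between samples, with the 6 genes summing to 9252 in replicate 3, against 110988 and 52096 in replicates 1 and 2, and 7 skeletal muscle markers, 4 of them above background in 3 of 3 samples, summed to 3086 in replicate 3, against 25269 and 6796 in replicates 1 and 2.

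Of the 37 measured heparan sulphate genes, 33 were above background in 3 of 3 samples, against 60.5% of all genes measured. The remaining 4, namely Xylt2, Ndst4, Hs6st3 and Gpc5, were above background in no sample on their representative probe sets, so no gene of the set was split between samples. With the probe set of lowest mean in place of the representative one, the count was 20. The count was 33 with any 1 of the 3 samples left out, replicate 3 included. With background at the 99th percentile of the receptor probe sets the count was 30, without Ndst3, B3gat3 and Extl1. In these bulk samples fewer cells of a type and less RNA per cell cannot be told apart.

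**Figure D1:**
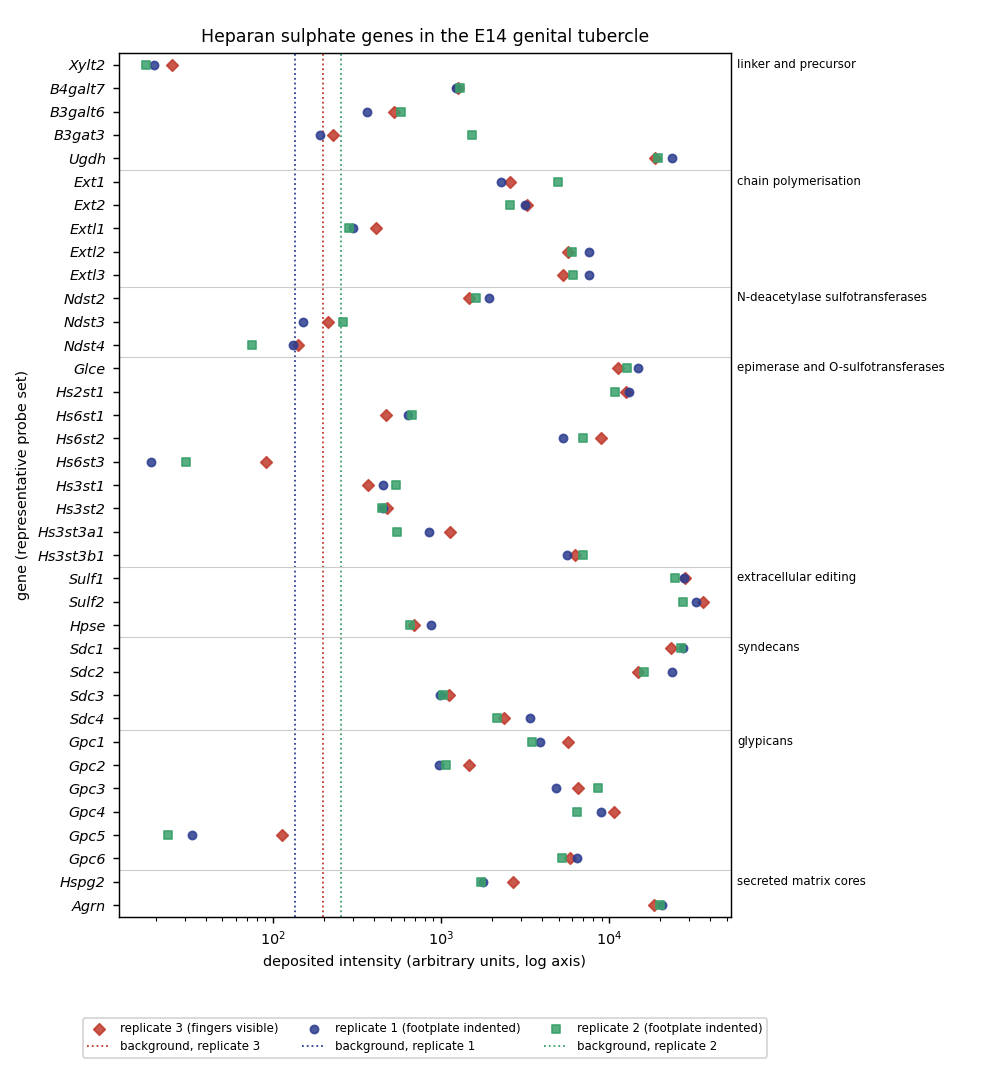
Deposited intensity (log axis, arbitrary units) of the representative probe set of 37 heparan sulphate genes in replicate 3 (diamonds), replicate 1 (circles) and replicate 2 (squares), grouped by role, with dotted lines at each array's background. The points of 33 genes lie right of the line of their own array in 3 of 3 samples, and those of Xylt2, Ndst4, Hs6st3 and Gpc5 lie left of it.

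The linker between core protein and chain is laid down by a xylosyltransferase, a pair of galactosyltransferases and a glucuronyltransferase. Xylt2, 1 of the xylosyltransferases, read 25.0 in replicate 3, against 19.5 and 17.6 in replicates 1 and 2, below background throughout. B4galt7, the first galactosyltransferase, read 1258 in replicate 3, against 1228 and 1293 in replicates 1 and 2. That was the smallest spread of this step on representative probe sets (SD 0.08 on the log2 scale, n = 3). This probe set is of the x_at type, in which some probes match other transcripts too. The other B4galt7 probe set read 361 in replicate 3, against 403 and 363 in replicates 1 and 2 (log2 SD 0.19, n = 3). B3galt6, the second galactosyltransferase, had 526 in replicate 3, against 362 and 581 in replicates 1 and 2. The 3 values lie within 2-fold of each other. The glucuronyltransferase B3gat3 read 227 in replicate 3, against 191 and 1526 in replicates 1 and 2 on its representative probe set. Its other one read 475 in replicate 3, against 447 and 807 in replicates 1 and 2. Both probe sets of B3gat3 were highest in replicate 2, but by very different margins, with a log2 difference of replicate 2 minus replicate 1 of 2.77 on the first and 0.63 on the second. Ugdh, which makes the UDP-glucuronate used for the linker and the chain, had 18776 in replicate 3, against 23532 and 19432 in replicates 1 and 2 and was well above background in each.

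All 5 exostosin genes were above background in 3 of 3 samples. Ext1 and Ext2 encode the subunits of the polymerase that extends the chain. Ext1 read 2575 in replicate 3, against 2271 and 4979 in replicates 1 and 2, with replicate 2 the high sample, and Ext2 read 3255 in replicate 3, against 3174 and 2569 in replicates 1 and 2. The chain initiation enzyme gene Extl3 had 5286 in replicate 3, against 7619 and 6072 in replicates 1 and 2, and Extl2, a transferase that acts on the linker, had 5681 in replicate 3, against 7577 and 6040.5 in replicates 1 and 2. On both representative probe sets, replicate 1 was the highest sample and the log2 SD was 0.34 for Extl3 and 0.31 for Extl2 (n = 3). A second probe set of Extl2 read 2800 in replicate 3, against 2296 and 1552 in replicates 1 and 2. Replicate 3 and not replicate 1 was the highest sample on it (log2 SD 0.52, n = 3). Extl1, the remaining family member, lay near background at 411 in replicate 3, against 298 and 283 in replicates 1 and 2.

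N-deacetylase N-sulfotransferases make the first sulphation, on which the later steps depend. Ndst2, the isoform required for heparin in mast cells, read 1469 in replicate 3, against 1920.3 and 1611 in replicates 1 and 2, with little spread (log2 SD 0.28, n = 3). Ndst3 had 213 in replicate 3, against 151 and 260.5 in replicates 1 and 2, which is only just above the background of each array, and Ndst4 had 141 in replicate 3, against 131 and 74.8 in replicates 1 and 2, below it. Of 7 mast cell markers 4 were above background in 3 of 3 samples and Mcpt4, Tpsb2 and Fcer1a in none. The 7 summed to 5851 in replicate 3, against 7039 and 6746 in replicates 1 and 2, but the markers did not move together. Hdc was lowest in replicate 3, while Cpa3, Cma1 and Kit were highest there. Ndst2 was lowest in replicate 3 on deposited values and in replicate 2 on aligned ones, and the part of mast cells in it was not tested.

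Epimerisation and O-sulphation were represented by 8 of 9 genes. Glce, the epimerase that turns glucuronate into iduronate, had 11261 in replicate 3, against 14896 and 12780.0 in replicates 1 and 2. A second probe set of Glce read 371 in replicate 3, against 260 and 391 in replicates 1 and 2. Replicate 1 was the lowest sample on it and the highest on the representative one. Hs2st1, which sulphates that iduronate at its 2-O position, had 12501 in replicate 3, against 13049 and 10854 in replicates 1 and 2, and the 3 values differed by less than 2-fold. Among the 6-O-sulfotransferases, Hs6st2 read 8963 in replicate 3, against 5274 and 6977 in replicates 1 and 2. Hs6st1 read 473 in replicate 3, against 631 and 674 in replicates 1 and 2. Hs6st3 stayed below background, at 90.2 in replicate 3, against 18.9 and 30.2 in replicates 1 and 2. Replicate 3 was thus the highest sample for Hs6st2 and the lowest for Hs6st1. The 3-O-sulfotransferase genes make the rarest modification, the one that creates the antithrombin site in heparin. Hs3st3b1 had 6236 in replicate 3, against 5638 and 6945 in replicates 1 and 2, the lowest spread of the 33 genes (log2 SD 0.04, n = 3). Its homologue Hs3st3a1, which lies on chromosome 11 with 1 protein-coding gene between them in the RefSeq annotation, had 1136 in replicate 3, against 846 and 548 in replicates 1 and 2, so that replicate 3 exceeded replicate 2 by 1.19 on the aligned log2 scale. Hs3st1, whose enzyme is the main one for the antithrombin site, had 368 in replicate 3, against 453 and 535 in replicates 1 and 2. Hs3st2 had 478 in replicate 3, against 451 and 443 in replicates 1 and 2. The Hs3st2 value comes from a probe set of the x_at type, in which some probes match other transcripts too, and it is therefore less certain.

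Sulf1 and Sulf2 are secreted sulfatases that remove 6-O sulphate from finished chains, and Hpse is heparanase, which cuts them. Sulf1 had 28326 in replicate 3, against 27900.5 and 24607 in replicates 1 and 2. A second probe set of Sulf1 gave 23856 in replicate 3, against 23173 and 23417 in replicates 1 and 2. Both Sulf1 probe sets varied little, with log2 SDs of 0.22 and 0.11 (n = 3). Sulf2 read 36234 in replicate 3, against 32681 and 27405 in replicates 1 and 2 on an x_at probe set. Another probe set of Sulf2 read 2065 in replicate 3, against 2625 and 2363 in replicates 1 and 2, with replicate 3 the lowest and not the highest sample, and all values within 2-fold of each other. Hpse had 687 in replicate 3, against 876 and 649 in replicates 1 and 2, and its representative probe set is its only one here.

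The syndecans are transmembrane cores, and 4 of 4 were above background in 3 of 3 samples. Sdc1, the main syndecan of epithelia, read 23249.5 in replicate 3, against 27408 and 26670.1 in replicates 1 and 2 on an x_at probe set. A second probe set of Sdc1 read 12878 in replicate 3, against 15388 and 13589 in replicates 1 and 2. Replicate 3 was the lowest sample on both probe sets as deposited, but on aligned values replicate 2 was the lowest on the second one. The 6 epithelial markers, all above background in 3 of 3 samples, summed to 64281 in replicate 3, against 88188 and 77451 in replicates 1 and 2. Of these, Cdh1, Krt5, Krt14 and Krt8 were lowest in replicate 3, and Epcam and Trp63 in replicate 2. Their part in the Sdc1 value was not tested. Sdc2, which is typical of mesenchyme, had 14837 in replicate 3, against 23739 and 16072 in replicates 1 and 2, so replicate 1 stood above both others. Summed markers of liver, skeletal muscle, smooth muscle, epithelium, macrophages, mast cells and nerve were highest in replicate 1 too. Those of genital tubercle, endothelium, erythroid cells and cartilage were not. The erythroid sum was mostly Hbb-y, lowest in replicate 1, while Alas2, Ermap, Epb42 and Klf1 were highest there. Median log2 differences of replicate 1 from the mean of the others were 1.69 for erythroid and 0.58 for endothelial markers. They were 0.11 for cartilage and -0.02 for genital tubercle, against 0.26 over 11006 genes. The part of any of these cell types in the Sdc2 value was not tested. A second Sdc2 probe set read 5139 in replicate 3, against 6335 and 9437 in replicates 1 and 2, with replicate 2 and not replicate 1 the highest. Sdc3, known from nervous tissue and muscle precursors, had 1108 in replicate 3, against 978 and 1029 in replicates 1 and 2 (log2 SD 0.12, n = 3). Sdc4, the focal adhesion syndecan, had 2354 in replicate 3, against 3385 and 2157 in replicates 1 and 2. The other probe set of Sdc4 read 1391 in replicate 3, against 559 and 1333 in replicates 1 and 2, with replicate 1 the lowest, not the highest.

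Glypicans are held at the membrane by a lipid anchor and modulate hedgehog, Wnt and Bmp signalling. Gpc3, whose loss causes an overgrowth syndrome in people, had 6557 in replicate 3, against 4829 and 8545 in replicates 1 and 2, with replicate 2 highest and all values within 2-fold of each other. Gpc4 had 10691 in replicate 3, against 8890.3 and 6431 in replicates 1 and 2. Its second probe set had 8253 in replicate 3, against 4511 and 3816 in replicates 1 and 2. Both Gpc4 probe sets were highest in replicate 3 and lowest in replicate 2, by 0.87 on the first and 1.25 on the second (log2 difference). Gpc1 had 5686 in replicate 3, against 3869.7 and 3466 in replicates 1 and 2. Gpc2 had 1459 in replicate 3, against 969 and 1071 in replicates 1 and 2. Replicate 3 was the highest sample for Gpc1 and Gpc2 as well. Gpc6 read 5827 in replicate 3, against 6398 and 5225 in replicates 1 and 2 on its representative probe set, all within 2-fold of each other. Gpc5 was the only glypican below background, at 113 in replicate 3, against 33.1 and 23.8 in replicates 1 and 2.

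Gpc3 and Gpc4 are neighbours on the X chromosome, with 0 protein-coding genes between them, and Gpc5 and Gpc6 are neighbours on chromosome 14 in the RefSeq annotation of GRCm38.p6. In the first pair both genes were above background in 3 of 3 samples, and in the second Gpc6 was and Gpc5 was not. The 250 bases before the RefSeq start of Gpc3, Gpc4 and Gpc5 are shown because these genes fall on different sides of background. They are from RefSeq, build GRCm38.p6, each on the strand of its gene, at chrX:52613975-52614224 (minus strand), chrX:52164924-52165173 (minus strand) and chr14:115091965-115092214 (plus strand). Capitals mark every CG, which reads the same on both strands.
Gpc3: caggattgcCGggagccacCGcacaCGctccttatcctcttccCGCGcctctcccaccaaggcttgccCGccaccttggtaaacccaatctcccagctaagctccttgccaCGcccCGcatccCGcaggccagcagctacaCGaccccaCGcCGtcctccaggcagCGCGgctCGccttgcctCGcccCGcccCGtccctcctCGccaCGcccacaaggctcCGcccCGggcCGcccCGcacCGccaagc
Gpc4: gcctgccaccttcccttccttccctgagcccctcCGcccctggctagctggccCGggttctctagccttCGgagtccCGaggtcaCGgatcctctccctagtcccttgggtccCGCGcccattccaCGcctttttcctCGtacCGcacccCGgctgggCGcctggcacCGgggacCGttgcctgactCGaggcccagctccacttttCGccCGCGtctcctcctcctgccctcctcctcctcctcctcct
Gpc5: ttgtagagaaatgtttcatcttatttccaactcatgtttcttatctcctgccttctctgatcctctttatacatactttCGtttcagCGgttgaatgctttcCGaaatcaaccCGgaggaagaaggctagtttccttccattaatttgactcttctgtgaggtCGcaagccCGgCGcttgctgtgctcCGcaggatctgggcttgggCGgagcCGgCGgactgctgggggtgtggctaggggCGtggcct
These windows hold 25 CG in Gpc3, 18 in Gpc4 and 12 in Gpc5. Of 32851 such windows in the RefSeq table, 10.7% hold at least as many as Gpc3, 21.7% as many as Gpc4 and 33.5% as many as Gpc5. The median window of all genes holds 6, and the median of 35 windows that belong to 30 of the heparan sulphate genes holds 18. The count is a description of these letters, and nothing on use of the promoters follows from it.

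Perlecan and agrin are secreted cores of basement membranes. Perlecan (Hspg2) had 2682 in replicate 3, against 1779 and 1724 in replicates 1 and 2, with replicate 3 the highest sample. Agrin (Agrn) had 18373 in replicate 3, against 20516 and 19940.5 in replicates 1 and 2 on its representative probe set, which varied little (log2 SD 0.15, n = 3). A second probe set of Agrn, above background in 3 of 3 samples, read 5051 in replicate 3, against 1351 and 11354 in replicates 1 and 2, a log2 difference of replicate 2 minus replicate 1 of 2.84, against -0.27 on the representative one. Replicate 1 was thus the lowest sample on the second probe set and the highest on the representative one.

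For the landmark contrast, limma compared replicate 3 with the mean of replicates 1 and 2 over the 29065 probe sets that exceeded background on some array, with 1 residual degree of freedom and the lone sample assumed to vary like the others. At a Benjamini-Hochberg adjusted p under 0.05 it called 0 of 68 heparan sulphate probe sets, against 0% of all tested. At an unadjusted p under 0.05 there were 0 of the 68, and 604 of all probe sets (2.08%). With 1 residual degree of freedom the absence of calls after adjustment does not show that these genes did not differ. On simulated data this fit called none of the changed probe sets after adjustment, even at large folds. The simulation used SDs over all arrays, shuffled among probe sets, so its spread is not that of the real fit. The largest positive differences among representative probe sets above background in 3 of 3 samples were in Hs3st3a1 (0.76 ± 0.70, log2 difference ± limma SE), Gpc1 (0.66 ± 0.62), Hspg2 (0.64 ± 0.61), Hs6st2 (0.59 ± 0.60) and Gpc2 (0.55 ± 0.60), each with adjusted p = 1.00 in limma. In all 5 of these genes replicate 3 exceeded both others. The largest negative ones were in B3gat3 (-1.23 ± 1.34), Hs6st1 (-0.44 ± 0.60), Hs3st1 (-0.39 ± 0.60), Sdc2 (-0.37 ± 0.69) and Ext1 (-0.36 ± 0.72), also with adjusted p = 1.00 in limma. Of these, Hs6st1 and Hs3st1 were lower in replicate 3 than in both others. For B3gat3 and Ext1 replicate 2 alone set the direction, since replicate 3 minus replicate 1 was 0.16 and 0.09. For Sdc2 replicate 1 set it, since replicate 3 minus replicate 2 was 0.02. The representative probe set of B3gat3 lay near background in replicates 3 and 1, and its other probe set gave a landmark difference of -0.31. Over the 33 genes the median difference was 0.04 on the log2 scale with 19 positive and 14 negative, and over 11006 genes it was -0.01.

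**Figure D2:**
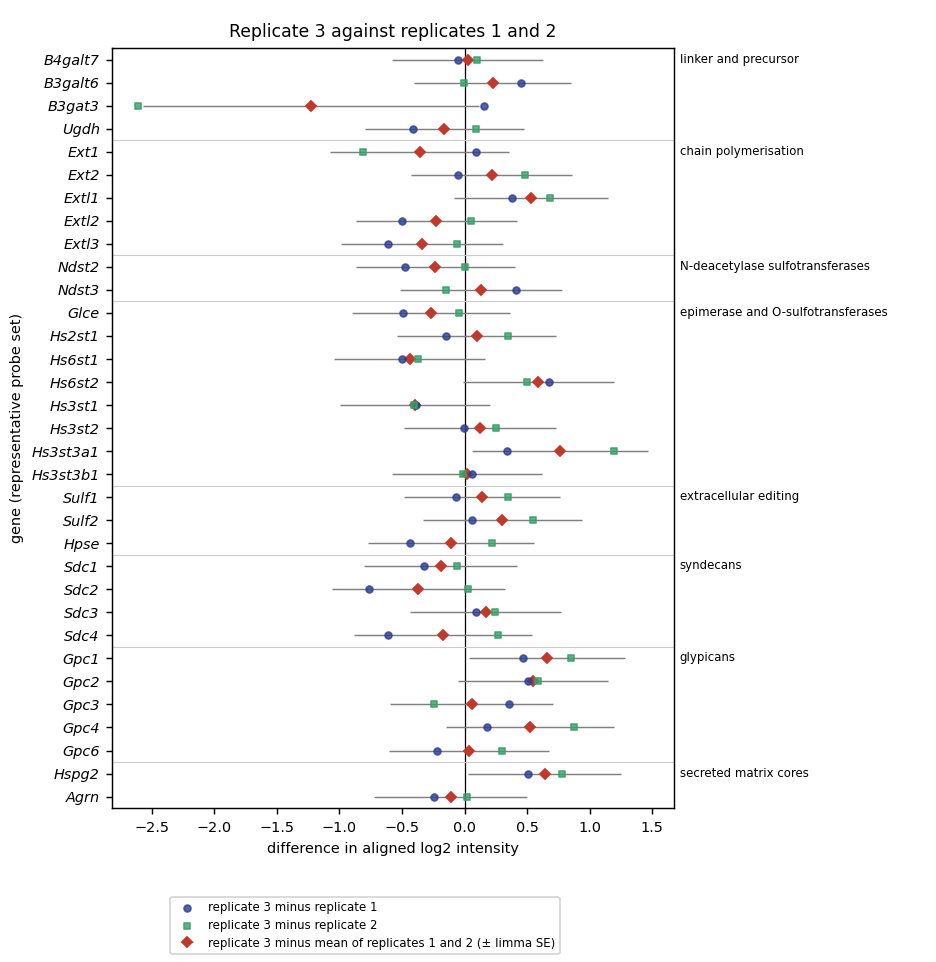
Difference in aligned log2 intensity of replicate 3 from the mean of replicates 1 and 2 (diamonds, bars show the limma SE), from replicate 1 (circles) and from replicate 2 (squares) for the 33 representative probe sets above background in 3 of 3 samples. Gpc1, Gpc2, Hspg2, Hs6st2 and Hs3st3a1 have all 3 symbols right of 0, and the circle and square of B3gat3 lie on opposite sides of it.

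Hs6st2, Gpc4 and Gpc3 are X-linked, and Xist was high in the library labelled replicate 3. Hs6st2 and Gpc4 were highest in replicate 3 and Gpc3 was not. Over 377 X-linked genes above background in 3 of 3 samples the median landmark difference was 0.11, with 224 positive and 153 negative. The high Xist reading and the visible fingers fall on the same sample, so sex and landmark cannot be told apart in these arrays. The part of the sex of the sample in the differences of Hs6st2 and Gpc4 was not tested.

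Pairs of samples were then compared by fold, with 1 sample a side and so no test. Among representative probe sets above background in 3 of 3 samples, 0 of 33 heparan sulphate genes were over 2-fold apart between replicates 3 and 1, against 7.62% of all 11006 genes. Between replicates 3 and 2 there were 2 of 33, namely Hs3st3a1 and B3gat3, against 7.24%. Between replicates 2 and 1 there was 1 of 33, B3gat3, against 12.3%. Over every probe set above background on each array, 4 of 57 were over 2-fold apart between replicates 3 and 1, against 13.7% of all 21612. All 4 were higher in replicate 3 (9.98% of all), from Gpc6, Agrn and Sdc4, and 0 were lower (3.77%). Between replicates 3 and 2 there were 6 of 57, against 9.85%, with 2 higher in replicate 3 (4.59%), of Hs3st3a1 and Gpc4, and 4 lower (5.25%), of B3gat3, Agrn, Hs2st1 and Hs3st3b1. Between replicates 2 and 1 there were 8 of 57, against 20.2%, with all 8 higher in replicate 2 (13.2%) and 0 lower (6.97%). The median SD over the 3 samples was 0.29 on the log2 scale for the 33 representative probe sets, against 0.33 for those of all genes. On aligned values replicate 1 was the highest sample for 17 of the 33 (51.5%), against 55.5% of all genes, and replicate 2 the lowest for 21 (63.6%), against 51.4%.

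**Figure D3:**
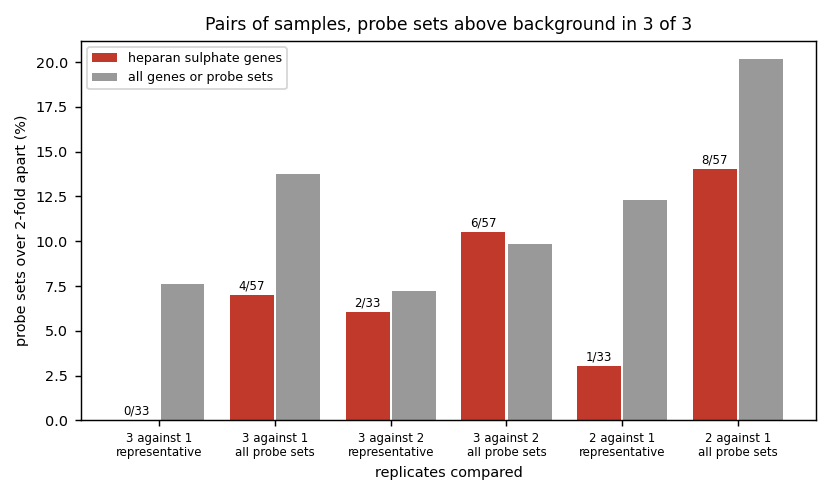
Share of probe sets over 2-fold apart (%) between pairs of samples, for heparan sulphate genes (left bars, with their counts) and all genes or probe sets (right bars), each above background in 3 of 3 samples. Counts of heparan sulphate genes on representative probe sets are 0, 2 and 1 of 33, and on all probe sets 4, 6 and 8 of 57.

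Most of the differences over 2-fold came from further probe sets of genes whose representative probe set stayed within 2-fold between the same samples. Of 24 further probe sets above background in 3 of 3 samples together with their representative, 10 gave a change between replicates 2 and 1 that was over 2-fold apart from it, against 34.5% of 7696 such probe sets of all genes. In 9 of the 24 the further probe set was relatively higher in replicate 2, against 29% of all, and in 1, of B3gat3, it was lower, against 5.42%. Between replicates 3 and 1 it was 5 of 24, against 22.7%, and between replicates 3 and 2 it was 4 of 24, against 19.5%. These shares are near those of all genes. Gpc6 showed it on 3 probe sets, beside a representative one with log2 SD 0.26 (n = 3). The first of these read 2394 in replicate 3, against 888 and 4273 in replicates 1 and 2. Another read 728 in replicate 3, against 314 and 1202 in replicates 1 and 2. The last read 2098 in replicate 3, against 1132 and 2582 in replicates 1 and 2, and all 3 were highest in replicate 2 and lowest in replicate 1. A further probe set of Hs3st3b1 had 211 in replicate 3, against 138 and 837 in replicates 1 and 2, and 1 of Hs2st1 had 230.5 in replicate 3, against 161 and 819 in replicates 1 and 2, both highest in replicate 2. Extl3 and Hspg2 each had a further probe set that was not above background in every sample. That of Extl3 read 180.2 in replicate 3, against 146 and 1099 in replicates 1 and 2. That of Hspg2 read 135 in replicate 3, against 102 and 412 in replicates 1 and 2, with replicate 2 highest again. The remaining probe set of Gpc6 read 430.4 in replicate 3, against 117 and 854 in replicates 1 and 2, above background in replicates 3 and 2.

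Ext1 had a further probe set at 456 in replicate 3, against 223 and 646 in replicates 1 and 2, lowest in replicate 1 like the representative. Another of Sulf1 read 704 in replicate 3, against 452 and 1032 in replicates 1 and 2. Another of Sdc2 read 85.5 in replicate 3, against 108 and 386 in replicates 1 and 2, above background only in replicate 2. For these 3 genes replicate 2 was the highest sample on the further probe set. A further probe set of B3galt6 read 254 in replicate 3, against 373 and 135 in replicates 1 and 2. One of Glce read 261 in replicate 3, against 461 and 189.9 in replicates 1 and 2. One of Hs3st2 read 238 in replicate 3, against 209.9 and 34.0 in replicates 1 and 2. Each of these 3 was lowest in replicate 2, and below background there alone. The remaining probe set of Hs3st2 read 288 in replicate 3, against 144 and 229.5 in replicates 1 and 2. One of Hs6st2 read 234 in replicate 3, against 226 and 215 in replicates 1 and 2. One of Sdc1 read 284 in replicate 3, against 102 and 205 in replicates 1 and 2. These lay close to background, and the one of Sdc1 was above it only in replicate 3. Further probe sets of 6 genes lay below background in every sample while the representative lay above it.

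Among these, the one of B3galt6 read 168 in replicate 3, against 35.2 and 12.6 in replicates 1 and 2. The Ext2 pair read 143 in replicate 3, against 29.0 and 28.9 in replicates 1 and 2 on one probe set. On the other, Ext2 read 12.9 in replicate 3, against 9.51 and 99.1 in replicates 1 and 2. No order of samples is read from values below background. That of Ndst3 read 191 in replicate 3, against 63.7 and 205 in replicates 1 and 2. That of Hs6st2 read 47.8 in replicate 3, against 20.6 and 19.8 in replicates 1 and 2. That of Hs3st3b1 read 68.8 in replicate 3, against 28.8 and 80.9 in replicates 1 and 2. These stayed under the background of their own array. The Sdc3 pair read 141 in replicate 3, against 11.1 and 164 in replicates 1 and 2 on one probe set. On the other, Sdc3 read 155 in replicate 3, against 25.9 and 96.5 in replicates 1 and 2. Both of these Sdc3 probe sets lay below background throughout, and so did all 3 probe sets of Ndst4. One further Ndst4 probe set read 55.4 in replicate 3, against 25.5 and 95.03 in replicates 1 and 2. The other read 4.25 in replicate 3, against 25.8 and 4.70 in replicates 1 and 2.

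**Figure D4:**
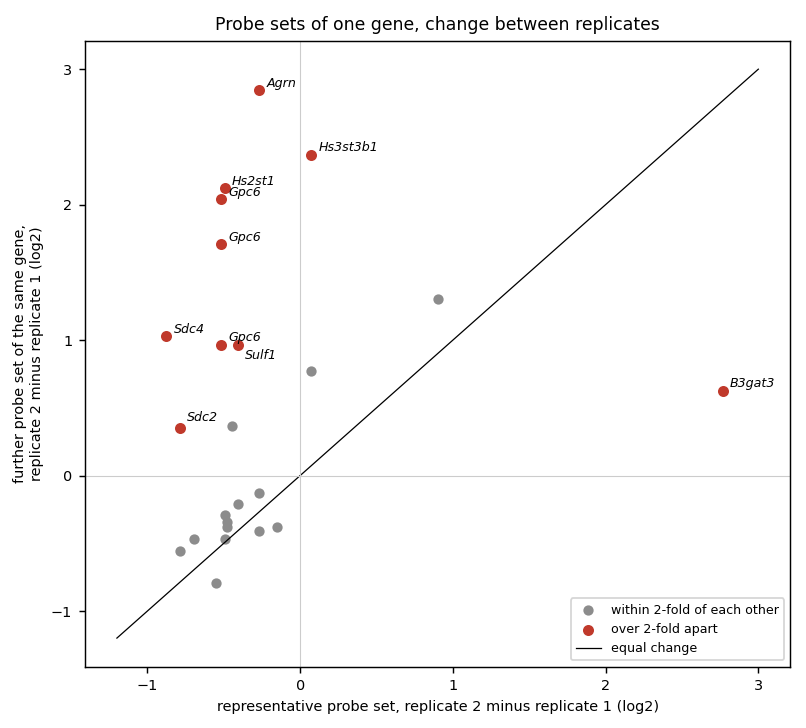
Log2 change of replicate 2 minus replicate 1 for 24 further probe sets (vertical axis) against the representative probe set of the same gene (horizontal axis), all above background in 3 of 3 samples, with the line of equal change. The 10 red points are over 2-fold apart from their representative, and 9 of them lie above the line, B3gat3 being the exception.

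Control probe sets that read the ends of a transcript differed between the same samples. The 3′ over 5′ ratio of Actb was 4.42 in replicate 3, against 7.38 and 2.21 in replicates 1 and 2, and that of Gapdh was 14.1 in replicate 3, against 21.5 and 14.9 in replicates 1 and 2. That of 18S was 1.44 in replicate 3, against 1.22 and 1.12 in replicates 1 and 2. Replicate 1 had the highest ratio for Actb and Gapdh, and replicate 3 for 18S. Positions of the probe sets along their transcripts were not used here, and the part of these ratios in the differences between probe sets was not tested.

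Each other sample was also set alone against the mean of the remaining ones in the same limma model. For replicate 1, 0 of 68 heparan sulphate probe sets were called, against 0% of all, and 4 had an unadjusted p under 0.05, against 3316 of 29065 (11.4%). These 4 were the second probe set of Agrn and 3 of Gpc6, all lower in replicate 1. In a fit on the 21612 probe sets that exceeded background on every array, the second probe set of Agrn was called, at -2.33 ± 0.52 (adjusted p = 0.0275, limma), against 2.36% of all called there, and with an intensity trend in the variance its adjusted p was 0.0353, against 1.92% of all called. Over all 8 settings its adjusted p lay between 0.0275 and 0.481, and it was 0.299 in the fit on 29065 probe sets. The representative probe set of Agrn was called in none of these fits. For replicate 2, 0 of 68 were called, against 0% of all, and 8 had an unadjusted p under 0.05, against 1467 (5.05%). Higher in replicate 2 were probe sets of B3gat3, Extl3, Hs2st1, Hs3st3b1, Hspg2 and Sdc2, and lower were 1 of Hs3st2 and 1 of Hs6st2. The Hs6st2 probe set read 129 in replicate 3, against 157 and 6.84 in replicates 1 and 2, above background in replicate 1 alone, and was called when arrays were aligned on all probe sets, an alternative chosen after seeing the data, at -4.88 (adjusted p = 0.000650, limma), against 0.864% of all called there. Its adjusted p in the other settings that tested it lay between 0.783 and 0.877.

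Genes that act beside this pathway were counted from 6 lists. Above background on every array were 6 of 7 genes for the sulphate donor PAPS and sulphate transport, for the linker kinase, phosphatase and nucleotide sugar genes 6 of 6, for lysosomal breakdown of the chains 7 of 8, and for further 3-O-sulfotransferase and heparanase family genes 2 of 3. The cores outside the syndecans and glypicans that can carry the chain were above it in 6 of 6, and chondroitin and dermatan sulphate synthesis in 12 of 16. The largest landmark difference among those above background in 3 of 3 samples was in Papss2, a PAPS synthase needed in cartilage, which read 664 in replicate 3, against 2454 and 1850.4 in replicates 1 and 2. Of 6 cartilage markers 1 was above background in 3 of 3 samples, and the 6 summed to 1827 in replicate 3, against 2029.6 and 2299.6 in replicates 1 and 2. Of the 6, Col2a1 and Acan were lowest in replicate 3 and the others were not, Sox9 among them, the one above background on every array. Their part in the Papss2 value was not tested. The iduronate sulfatase gene Ids, of lysosomal breakdown, read 17762 in replicate 3, against 12055 and 9166 in replicates 1 and 2. The lysosomal acetyltransferase gene Hgsnat read 2155 in replicate 3, against 4187 and 3967 in replicates 1 and 2. Replicate 3 was the highest sample for Ids and the lowest for Hgsnat. Among the cores, Nrp1, a receptor for semaphorins and vascular growth factor, read 11772 in replicate 3, against 5267 and 7440.0 in replicates 1 and 2. Betaglycan (Tgfbr3), a co-receptor for TGF-beta, read 7641 in replicate 3, against 4420.5 and 5578 in replicates 1 and 2. Serglycin (Srgn), the granule core, read 199 in replicate 3, against 409.6 and 298 in replicates 1 and 2. Replicate 3 was the highest sample for Nrp1 and Tgfbr3 and the lowest for Srgn.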

How the data were processed

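Genital tubercle RNA of 3 embryos was hybridised to Affymetrix MOE430 arrays after 2 rounds of amplification, per the labels' protocols. The authors deposited linear intensity values made with GCOS, per the submitters' processing notes, whose version is not given in the sources used here. On each array the mean, with 2% trimmed at each end, was 1500, which was checked on the values. Of 45101 probe sets 64 controls were left out. The deposited annotation gave 1 symbol to 34945 probe sets, several to 932 and none to 9160, and 34741 of the first were matched through their Entrez IDs to RefSeq (GRCm38.p6).

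Intensities were floored at 1, taken to log2 and aligned by the median of probe sets that exceeded background on every array. limma 3.58.1 in R 4.3.3 (lmFit, eBayes, Benjamini-Hochberg adjustment over 29065 probe sets) set 1 sample against the mean of the other two, with 1 residual degree of freedom. On simulated data the landmark fit estimated differences near those put in, but called none of the changed probe sets after adjustment, at any fold tried. The simulated probe sets had the SDs of the real ones over all arrays, shuffled among them. Pairs were compared by a 2-fold threshold without a test. Values are given for the representative probe set of every measured gene, and for other probe sets that fall on the other side of background or differ from it by over 1 on the log2 scale in some pair. Of other pathway genes, the 6 with the largest landmark difference are named. Alternatives were other background percentiles, filters, floors, alignments, quantile normalization, a variance trend, other representative probe sets and leaving out each sample. The genes and lists were chosen with earlier results of these data known.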

Additional observations from a re-analysis of the deposited data

Results flagged for a closer look

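A probe set annotated to both Gal3st4 and Gpc2, and so outside the comparisons, was above background in 3 of 3 samples, at 993.47 in replicate 3, against 767.47 and 550.2 in replicates 1 and 2. It cannot be assigned to either gene.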

How the results depend on the processing

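With 3 arrays, 1 residual degree of freedom and no detection calls, a missed call does not show that values did not differ. The count of 33 genes above background fell to 20 with the lowest-mean probe set of each gene, and was 30 at the 99th percentile and 33 without any 1 sample. The share of all genes was not computed under these alternatives. In the replicate 1 contrast 1 heparan sulphate probe set was called in the fit on probe sets that exceeded background on every array and 1 with an intensity trend, against 0 otherwise, and in the replicate 2 contrast 1 was called when arrays were aligned on all probe sets, an alternative added once the data had been seen. In limma the landmark contrast called no heparan sulphate probe set under the 8 settings run. Few or none of all probe sets were called under each, so nothing about these genes is read from that. On representative probe sets alone 0 were over 2-fold apart for replicates 3 and 1, 2 for replicates 3 and 2, and 1 for replicates 2 and 1. Once background had to be exceeded on any 1 array only, 12 were apart for replicates 3 and 2 and 16 for replicates 2 and 1. The first of these was 3 at the 99th percentile, and the second was 16 when aligned on all probe sets. The wider filter also admits probe sets that are high on 1 array alone. Shares over all probe sets were not computed for these settings, so nothing about these genes is read from the counts. Of 50 alternative values of the 10 named landmark differences, 3 changed direction, which were B3gat3 without replicate 2 (0.16, range -2.61 to 0.16), Ext1 without replicate 2 (0.094, range -0.81 to 0.094) and Sdc2 without replicate 1 (0.025, range -0.77 to 0.025). The cause of these changes was not tested. Leaving out a sample leaves no residual degrees of freedom, so the contrasts then give no count of calls. No paired analysis was possible because all samples belong to 1 group.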
